A study of Mus musculus with 10 samples.

Results

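The Runx genes and their core-binding factor partners were followed after knockdown of Vegfr2 in primary mouse LECs, the lymphatic endothelial cells that form the inner wall of lymph vessels. The 6 genes are the rows of the deposited table with the symbols Runx1, Runx2, Runx3, Cbfb, Cbfa2t2 and Cbfa2t3, out of 16251 genes. In 5 libraries the cells carried 50 nM of small interfering RNA (siRNA) against Vegfr2, and the 5 others are labelled control, all taken at 48 h. Vegfr2, a receptor of the growth factor VEGF, is encoded by Kdr. The control libraries bear the same siRNA knockdown treatment tag, and the labels state neither whether a control siRNA was given nor whether each replicate was a culture of its own. Hence p-values reflect only the spread among these libraries, and that spread may be technical.

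Runx proteins are transcription factors that bind DNA through a Runt domain. Cbfb, the core-binding factor beta subunit, does not itself bind DNA but joins the Runt domain and strengthens its grip on DNA. Runx1 is needed for the emergence of blood stem cells from endothelium in the embryo, Runx2 for bone formation, and Runx3 for T cell and sensory neuron development. Cbfa2t2 and Cbfa2t3 encode corepressors that recruit histone deacetylases. Their relative Runx1t1 is known from its fusion with RUNX1 in human acute myeloid leukemia, and Cbfa2t3, also called ETO2, works in blood progenitors within complexes built on Tal1, Lmo2 and Ldb1. The title of the series names a transition of lymphatic to hematopoietic transcription when endothelial VEGFR2 is insufficient.

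Each Runx gene has a distal start site, and the windows there share a stretch that holds the Runx word in tandem. It is shown because the Runx genes carry the word that their own products bind, and because the changes described here ran in opposite directions for Runx1 and Runx2. The sequences are from RefSeq (GRCm38.p6), on the strand of the gene, and capitals mark the word ACCACA, which is TGTGGT on the other strand. They lie at chr16:92826025-92826054 (minus strand) for Runx1, chr17:44814583-44814612 (minus strand) for Runx2 and chr4:135120503-135120532 (plus strand) for Runx3.
Runx1 distal: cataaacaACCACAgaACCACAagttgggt
Runx2 distal: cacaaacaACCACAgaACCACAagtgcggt
Runx3 distal: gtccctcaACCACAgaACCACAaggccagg
The stretch common to the 3 genes is 18 bases long, and Runx1 and Runx2 share 22 bases. Of 32851 RefSeq start-site windows of 300 bases (250 before the start and 50 after it), 5506 (16.8%) held the word on either strand, but only 20 windows of 20 genes (0.0609%) held 2 copies whose starts lie 8 bases apart, the Runx genes among them. The 6 genes have 9 windows, and the word was in the 3 that hold these stretches. A match of letters is a description and says nothing of binding in these cells.

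Runx1 also has a proximal start, whose 250 preceding bases at chr16:92697330-92697579 (minus strand) are printed because Runx1 had the largest change of the 6 genes. Capitals mark the single match to the Egr word GCGNGGGCG.
Runx1 proximal: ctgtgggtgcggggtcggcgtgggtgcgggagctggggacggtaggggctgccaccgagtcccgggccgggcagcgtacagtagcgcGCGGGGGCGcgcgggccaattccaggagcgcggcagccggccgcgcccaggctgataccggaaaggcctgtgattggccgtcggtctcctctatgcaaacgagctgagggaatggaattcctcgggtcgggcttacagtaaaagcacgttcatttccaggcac
The Egr word was in 4 of the 9 windows, at 1 start each of Runx1, Runx3, Cbfa2t2 and Cbfa2t3, against 5.55% of all windows. Apart from N, which is any base, the word holds only G and C. The windows with it were 69.0 to 81.7% G and C, and those without it 45.0 to 69.7%. The share of all windows was not matched for this content, so no enrichment can be read from it. The AP-1 word TGANTCA was in 0 of the 9 windows and in 7.81% of all. The deposited counts are per gene, so they do not tell which Runx1 start was used.

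Estimated counts per library totalled 17946483 to 18239260. Kdr averaged 186 ± 14.8 CPM in siRNA libraries and 1323 ± 66.3 CPM in control libraries (SD, n = 5 each; CPM are read counts scaled to a common library size), or 14.0% of control. All 9 lymphatic and 8 pan-endothelial marker genes had values. Pan-endothelial markers, Kdr among them, summed to 4665 to 4890 CPM in siRNA and 6755 to 7078 CPM in control libraries. The summed lymphatic markers stood at 8955 to 9714 CPM in siRNA libraries and 13050 to 14210 CPM in control libraries. Blood cell markers summed to 8.45 to 10.3 CPM in siRNA and 11.5 to 13.5 CPM in control libraries, over 10 of 16 genes with values, and Spi1, Vav1, Csf1r and Itgam had at most 15 counts each over all 10 libraries. Fibroblast and mural markers summed to 14.97 to 17.7 CPM in siRNA and 14.0 to 20.1 CPM in control libraries. Bone and cartilage markers stood at 7.02 to 10.2 CPM in siRNA and 3.30 to 4.56 CPM in control libraries, with Sp7, Bglap, Ibsp, Col2a1 and Acan at 15 counts or fewer, and epithelial markers at 7.68 to 8.73 CPM in siRNA and 1.22 to 2.46 CPM in control libraries, with Epcam, Krt8 and Cdh1 at 15 counts or fewer. In RNA from a whole culture, a change in the share of cells that express a gene and a change in RNA per cell cannot be told apart.

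Of the 6 genes, 5 passed the filter on low counts and all 5 passed the test, 3 higher (Runx1, Cbfb and Cbfa2t2) and 2 lower (Runx2 and Cbfa2t3) in siRNA cells. This count has to be read against the whole table, where 71.3% of 12161 tested genes passed the same test (edgeR's quasi-likelihood test with Benjamini-Hochberg adjustment over all tested genes, threshold 0.05), 36.1% higher and 35.2% lower. A share of 5 in 5 is therefore near what most genes did, and size tells more. The median change of all tested genes was −0.00189 on the log2 scale, and the middle of their distribution, from the 25th to the 75th percentile, ran from −0.23 to 0.21. Against a fold of 1.5 (edgeR's glmTreat), 1 of the 5 tested members passed, Runx1, where 8.56% of tested genes did (3.68% higher and 4.88% lower). The libraries of the 2 groups did not overlap for 4 of the 5, against 57.0% of tested genes.

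**Figure D1:**
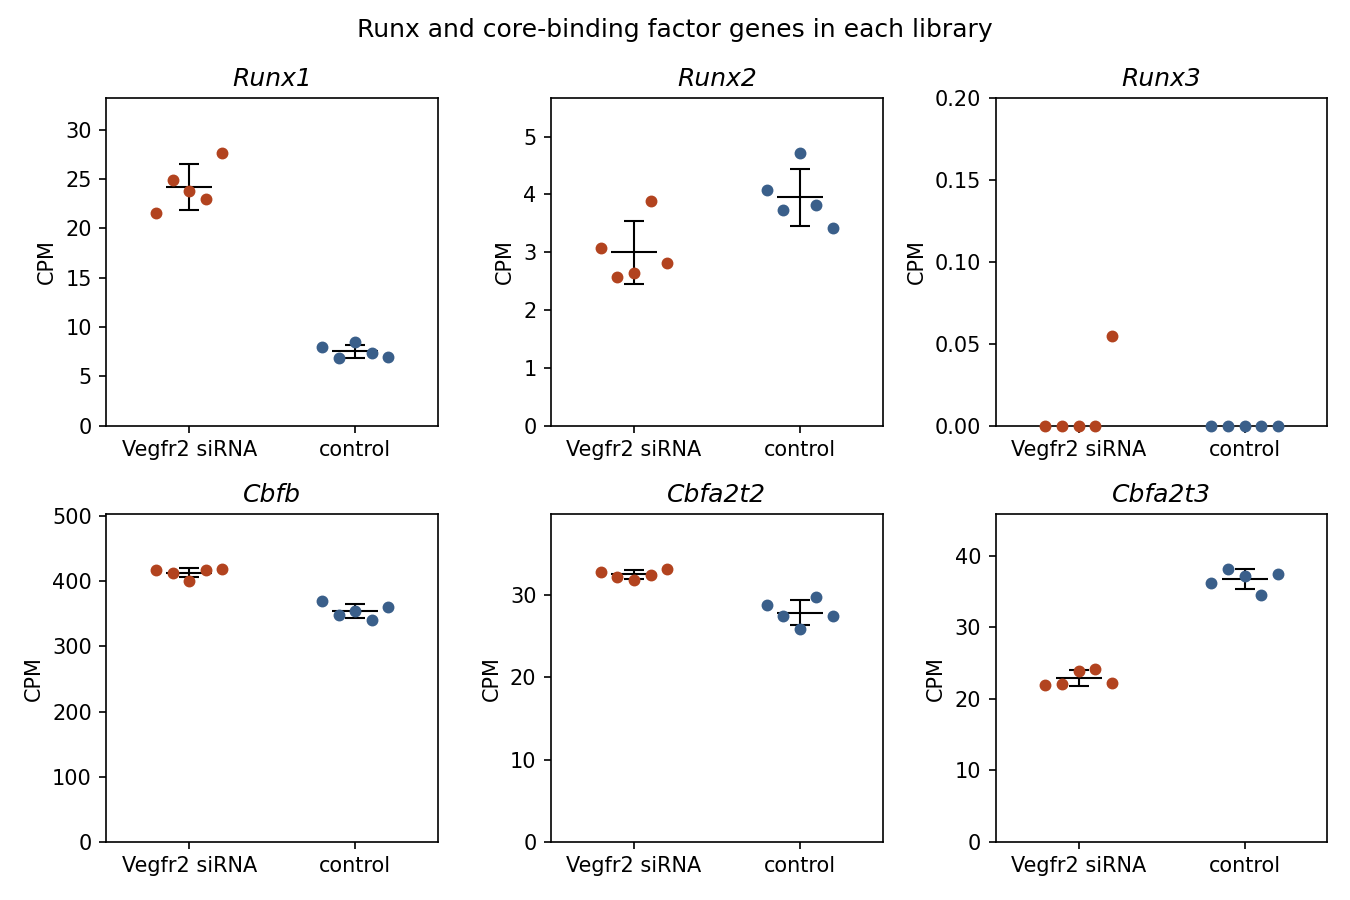
CPM of the 6 genes in each library, with 5 Vegfr2 siRNA libraries at the left and 5 control libraries at the right of each panel; each dot is a library, and bars give the mean and SD (none for Runx3). The groups do not overlap for Runx1, Cbfb, Cbfa2t2 and Cbfa2t3, they overlap for Runx2, and Runx3 has 1 read in 1 siRNA library.

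Runx1, the blood stem cell regulator (Entrez gene 12394, GRCm38.p6 chromosome 16, 92601466 to 92826074), measured 21.5, 24.9, 23.8, 23.0 and 27.7 CPM across siRNA libraries, against 7.998, 6.89, 8.45, 7.40 and 6.95 CPM across control libraries. Each siRNA library lay above each control library, and the lowest siRNA value was more than double the highest control value. The group means were 24.2 ± 2.32 CPM in siRNA and 7.54 ± 0.673 CPM in control cells (SD, n = 5 each), from 393 to 503 reads per siRNA library and 124 to 152 per control library. Runx1 rose 3.20-fold, a log2 fold change of 1.68 (SE 0.071, edgeR adjusted p = 1.57e-23; adjusted p against a fold of 1.5, 1.41e-17). Only 74 of the 12161 tested genes had a higher log2 fold change. The SD between control libraries, 0.673 CPM, was close to the 0.648 CPM that counting alone gives, whereas in siRNA libraries it was 2.32 CPM against 1.15 CPM. The bone and cartilage sum and the epithelial sum rose in siRNA cells, as Runx1 did, while the blood sum fell. Each of these sums rested mostly on 1 or 2 genes. The bone and cartilage sum was mostly Sox9 (7.85 ± 1.31 CPM in siRNA and 3.71 ± 0.478 CPM in control cells), and the epithelial sum mostly Krt18 (8.22 ± 0.383 CPM in siRNA and 1.67 ± 0.469 CPM in control cells). The blood sum was mostly Fcer1g (7.31 ± 0.650 CPM in siRNA and 9.26 ± 0.911 CPM in control cells) and Laptm5 (1.22 ± 0.173 CPM in siRNA and 2.36 ± 0.322 CPM in control cells; SD, n = 5 each throughout). The part of blood, bone, cartilage or epithelial cells in the Runx1 difference was not tested.

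Runx2, the regulator of bone formation (Entrez gene 12393, chromosome 17, 44495987 to 44814797), was the lowest of the tested members. It was at 3.07, 2.58, 2.63, 3.90 and 2.81 CPM in siRNA libraries and at 4.08, 3.73, 4.72, 3.81 and 3.42 CPM in control libraries. Here the groups overlapped, since siRNA replicate 4 lay above control replicates 2, 4 and 5. The means were 2.996 ± 0.537 CPM in siRNA and 3.95 ± 0.492 CPM in control cells (SD, n = 5 each), close to the SDs of 0.406 and 0.469 CPM that counting alone gives. Runx2 fell 1.32-fold (log2 fold change −0.40, SE 0.126, edgeR adjusted p = 0.00469), a call resting on 47 to 71 reads per siRNA library and 61 to 85 per control library. Under the alternatives that tested it the value ran from −0.51 to −0.33, with adjusted p from 0.000642 to 0.0277. Exons of Runx2 share 5.9% of their bases with Runx2os1 on the other strand, and no strand setting is stated.

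Runx3, the T cell and sensory neuron member (Entrez gene 12399, chromosome 4, 135120645 to 135177990), had 1 read in siRNA replicate 5 and 0 in the other 9 libraries. It was under the filter and not tested. A count of 0 allows up to 3 reads, or 0.164 to 0.168 CPM per library, counting error only, so Runx3 RNA was not detectable at this depth in either group beyond that read. Runx1t1, the third gene of the Cbfa2t family, likewise had 1 read in the siRNA and 0 in the control libraries.

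Cbfb, the beta subunit (Entrez gene 12400, chromosome 8, 105170674 to 105217989), was by far the most abundant of the 6 genes. It was at 417, 412, 401, 418 and 419 CPM in siRNA libraries and at 369, 348, 355, 341 and 360 CPM in control libraries. The groups did not overlap, with siRNA replicate 3 the nearest to control. Cbfb rose to 413 ± 7.59 CPM in siRNA cells, against 355 ± 10.8 CPM in control cells (SD, n = 5 each), a log2 fold change of 0.22 (SE 0.024, edgeR adjusted p = 8.28e-11). The call rested on 7300 to 7620 reads per siRNA library and 6176 to 6603 per control library. Among tested genes 49.7% changed by more, so the rise of Cbfb was precise but of common size.

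Cbfa2t2 and Cbfa2t3, the corepressor genes, moved in opposite directions. Cbfa2t2, also called MTGR1 (Entrez gene 12396, chromosome 2, 154436098 to 154539356), was at 32.9, 32.2, 31.8, 32.5 and 33.2 CPM in siRNA libraries and at 28.8, 27.5, 25.8, 29.8 and 27.4 CPM in control libraries. The groups did not overlap, and the rise was small, with means of 32.5 ± 0.532 CPM in siRNA and 27.9 ± 1.49 CPM in control cells (SD, n = 5 each; log2 fold change 0.22, SE 0.044, edgeR adjusted p = 2.08e-05). Cbfa2t3, or ETO2 (Entrez gene 12398, chromosome 8, 122625136 to 122699332), was at 21.9, 22.2, 23.9, 24.3 and 22.2 CPM in siRNA libraries and at 36.2, 38.2, 37.2, 34.6 and 37.5 CPM in control libraries. Every siRNA library lay well below every control library. Cbfa2t3 fell to 22.9 ± 1.11 CPM in siRNA cells, against 36.7 ± 1.40 CPM in control cells (SD, n = 5 each), or 62.3% of control (log2 fold change −0.68, SE 0.045, edgeR adjusted p = 2.02e-17). Its SDs were no larger than the 1.12 and 1.43 CPM from counting alone. Among tested genes 802 had a lower log2 fold change. Against a fold of 1.5 Cbfa2t3 did not pass (glmTreat adjusted p = 0.0540), but it passed with RLE scaling (0.0480) and without siRNA replicate 3 (0.0371), siRNA replicate 4 (0.0282) or control replicate 4 (0.0262), so its size lies at that limit. The deposited estimated counts of all 6 genes had no decimals in any library.

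**Figure D2:**
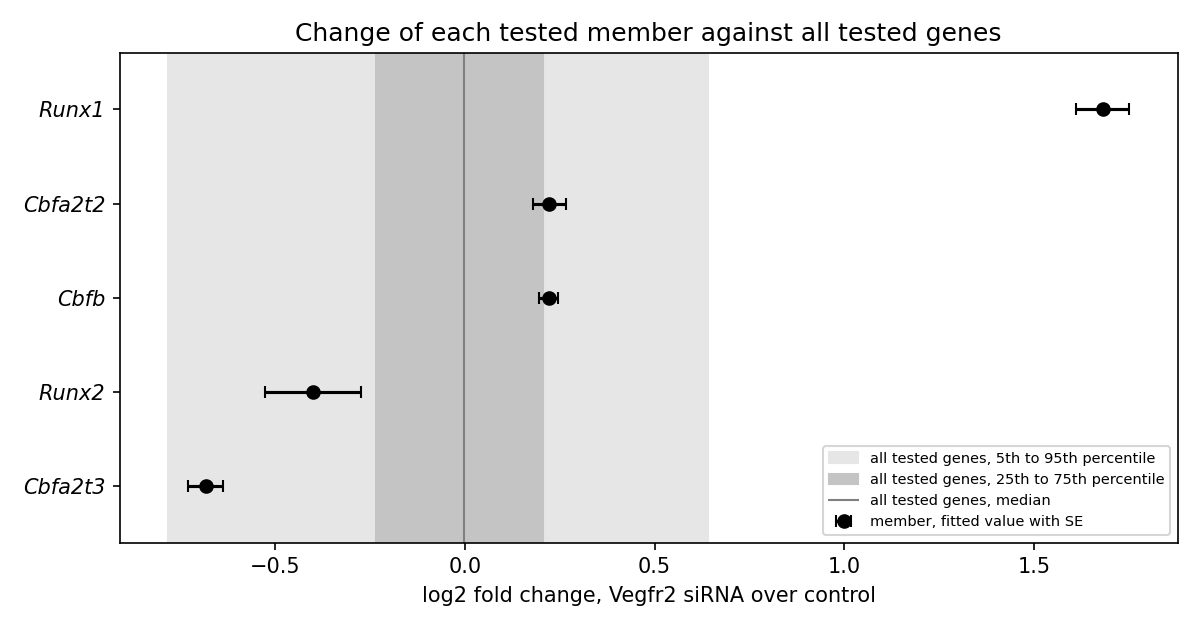
Log2 fold change (siRNA over control) of the 5 tested genes, with SE, over grey bands for the distribution of all tested genes. Runx1 at 1.68 lies beyond the band that ends at 0.64 (95th percentile), Cbfa2t3 at −0.68 lies inside the band that starts at −0.78 (5th percentile), and Cbfb and Cbfa2t2 lie just above the 75th percentile of 0.21.

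Pairs of members were set against each other within each library, so that the scaling between libraries drops out. Of 5 pairs planned, 3 could be run, since Runx3 was under the filter. There were 8.22 ± 1.72 reads of Runx1 for each read of Runx2 in siRNA libraries, against 1.91 ± 0.0946 in control libraries (SD, n = 5 each). The lowest siRNA library had 5.87 and the highest control library 2.02. The log2 ratio differed by 2.08 between the groups (95% interval 1.74 to 2.42), with p = 0.00794 in a two-sided exact permutation test, the smallest the design allows, and the same value after adjustment over the 3 pairs. The log2 ratio of Runx1 to Cbfb differed by 1.46 (95% interval 1.27 to 1.64) and that of Cbfa2t3 to Cbfa2t2 by −0.91 (−1.06 to −0.75), each with the same exact permutation p of 0.00794. Reads of Cbfa2t3 for each read of Cbfa2t2 numbered 0.667 to 0.752 in siRNA libraries and 1.16 to 1.44 in control libraries. Runx1 and Runx2, and likewise the Cbfa2t genes, changed unequally, beyond the spread between libraries. The groups already did not overlap for Runx1, Cbfa2t2 and Cbfa2t3, and the ratios use the same reads. The permutation p-values are therefore no support separate from the tests of single genes.

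Levels of different genes were compared per kilobase of the longest protein-coding transcript (GENCODE M21). In siRNA cells the order was Cbfb (143 ± 2.63 CPM per kb), Cbfa2t2 (5.35 ± 0.0875), Runx1 (4.12 ± 0.395), Cbfa2t3 (2.99 ± 0.145) and Runx2 (0.464 ± 0.0831). In control cells it was Cbfb (123 ± 3.74 CPM per kb), Cbfa2t3 (4.80 ± 0.183), Cbfa2t2 (4.58 ± 0.246), Runx1 (1.29 ± 0.115) and Runx2 (0.612 ± 0.0761), where Cbfa2t3 and Cbfa2t2 overlapped in range (4.52 to 5.00 and 4.25 to 4.90 CPM per kb). Runx1 thus stood above Cbfa2t3 in siRNA cells and below it in control cells. The place of Runx1 among its neighbours depends on the length taken: with the union of all exons Runx1 was at 2.01 CPM per kb in siRNA cells, below Cbfa2t3 at 2.73, and with the median coding transcript it was at 12.2 CPM per kb, above Cbfa2t2 at 7.81 and Cbfa2t3 at 7.59. Cbfb was highest and Runx2 lowest of the tested genes with each of the 3 lengths.

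Runx1 made up most of the Runx RNA in both groups, and more of it after siRNA. Per kilobase, Runx1 was 88.6, 91.4, 90.9, 86.7 and 91.3% of the summed Runx RNA in siRNA libraries and 68.4, 67.1, 66.4, 68.2 and 69.2% in control libraries. No control library reached the lowest siRNA library. The summed Runx RNA was 4.59 ± 0.374 CPM per kb in siRNA and 1.90 ± 0.188 CPM per kb in control cells (SD, n = 5 each). Cbfb RNA exceeded the summed Runx RNA in every library, by 28.0 to 34.8 times in siRNA and by 56.5 to 72.6 times in control libraries. With the median coding transcript as the length this excess was 9.65 to 11.9 times in siRNA and 18.4 to 23.8 times in control libraries, and with the union of exons 45.8 to 56.1 times in siRNA and 82.4 to 107 times in control libraries. Its size thus depends on the length taken, and it was smaller in siRNA than in control libraries with each of the 3 lengths. With the union of exons the Runx1 share was 81.3 to 87.7% in siRNA and 56.8 to 59.9% in control libraries. These are RNA levels and say nothing of protein.

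**Figure D3:**
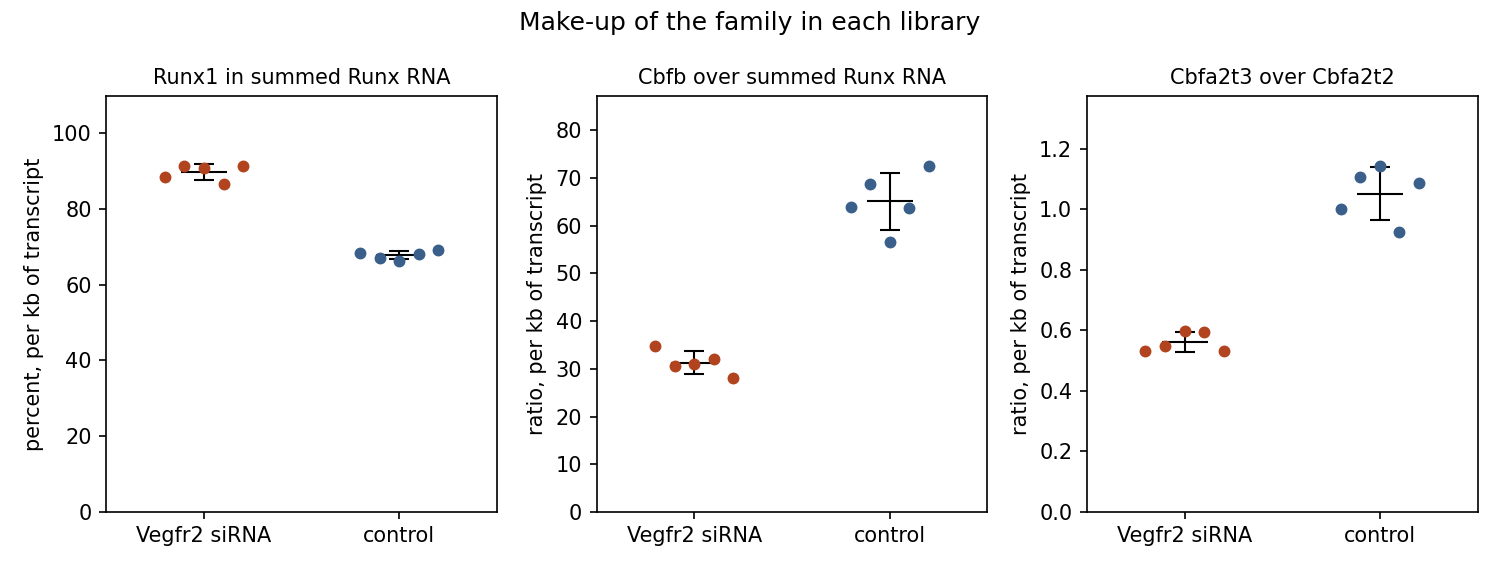
Runx1 as a percentage of summed Runx RNA, Cbfb over summed Runx RNA and Cbfa2t3 over Cbfa2t2, each per kilobase of the longest coding transcript; each dot is a library (5 Vegfr2 siRNA at the left, 5 control at the right), with mean and SD. In each panel the groups are apart: 86.7 to 91.4% in siRNA against 66.4 to 69.2% in control libraries, 28.0 to 34.8 in siRNA against 56.5 to 72.6 in control libraries, and 0.530 to 0.598 in siRNA against 0.924 to 1.14 in control libraries.

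Genes that work with Runx proteins as corepressors or coactivators moved in both directions. Of 18 tested genes of this list, 7 rose, 7 fell and 4 did not pass (14 of 18, or 77.8%, beside 71.3% of all tested genes), and the median log2 fold change was −0.04. Yap1, a Hippo pathway coactivator that binds the PY motif of Runx proteins, fell to 69.0 ± 0.984 CPM in siRNA cells, against 164 ± 3.63 CPM in control cells (SD, n = 5 each; log2 fold change −1.25, edgeR adjusted p = 6.40e-34). It was the list's only gene to pass glmTreat against a fold of 1.5. The labels do not give the siRNA sequence, and a direct action of the siRNA on Yap1 RNA was not tested. The Yap1 paralog Wwtr1 (TAZ) rose by 0.28 on the log2 scale, and Smad3, a TGF-beta signal transducer that partners Runx proteins, by 0.40. The deacetylase gene Hdac2 rose to 138 ± 5.38 CPM in siRNA cells, against 97.4 ± 1.77 CPM in control cells. Among genes of the Groucho corepressor family, Tle3 rose by 0.22, and Tle2 (−0.64), Tle4 (−0.30) and Tle5 (−0.23) fell. The fall of Tle2 rested on 22 to 33 reads per siRNA library and 28 to 49 per control library, with overlapping groups. Tle1 had a log2 fold change of −0.06 (edgeR adjusted p = 0.219).

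Partners of the Cbfa2t3 complex also moved both ways, with 7 of 13 tested genes up, 5 down and 1 that did not pass (12 of 13, or 92.3%, beside 71.3% of all tested genes; median log2 fold change 0.09). Tcf3, which encodes the E proteins E12 and E47, rose to 106 ± 1.47 CPM in siRNA cells, against 75.4 ± 3.52 CPM in control cells (SD, n = 5 each; log2 fold change 0.50, edgeR adjusted p = 2.36e-18). Lyl1, a relative of Tal1, fell to 5.10 ± 0.227 CPM in siRNA cells, against 9.79 ± 0.831 CPM in control cells. Irf2bp2, a corepressor found with Cbfa2t3, fell by 0.34 and the Ldb1-binding gene Ssbp4 by 0.39 on the log2 scale. The core genes Ldb1 (0.14) and Tal1 (0.13) rose and Lmo2 (−0.25) fell, all by less than Cbfa2t3. Exons of Irf2bp2 share 20.5% of their bases with another gene, so its level is uncertain to that extent.

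Of 19 genes whose products act on Runx proteins, 9 rose, 3 fell and 7 did not pass. These calls were 12 of 19, or 63.2%, beside 71.3% of all tested genes, and the median log2 fold change was 0.04. The arginine methyltransferase gene Prmt1, whose product methylates Runx1, rose to 208 ± 7.79 CPM in siRNA cells, against 129 ± 5.85 CPM in control cells (SD, n = 5 each; log2 fold change 0.68, edgeR adjusted p = 1.39e-22). It was the only gene of the list to pass glmTreat against a fold of 1.5. Carm1, another arginine methyltransferase gene, rose by 0.50, though its estimated counts were fractional in all 10 libraries, and the histone methyltransferase gene Suv39h1 rose by 0.37. Exons of Carm1 share 21.1% of their bases with another gene, and those of Suv39h1 14.6%. Cdk6, a cell cycle kinase gene whose product binds Runx1, fell by 0.50 on the log2 scale.

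**Figure D4:**
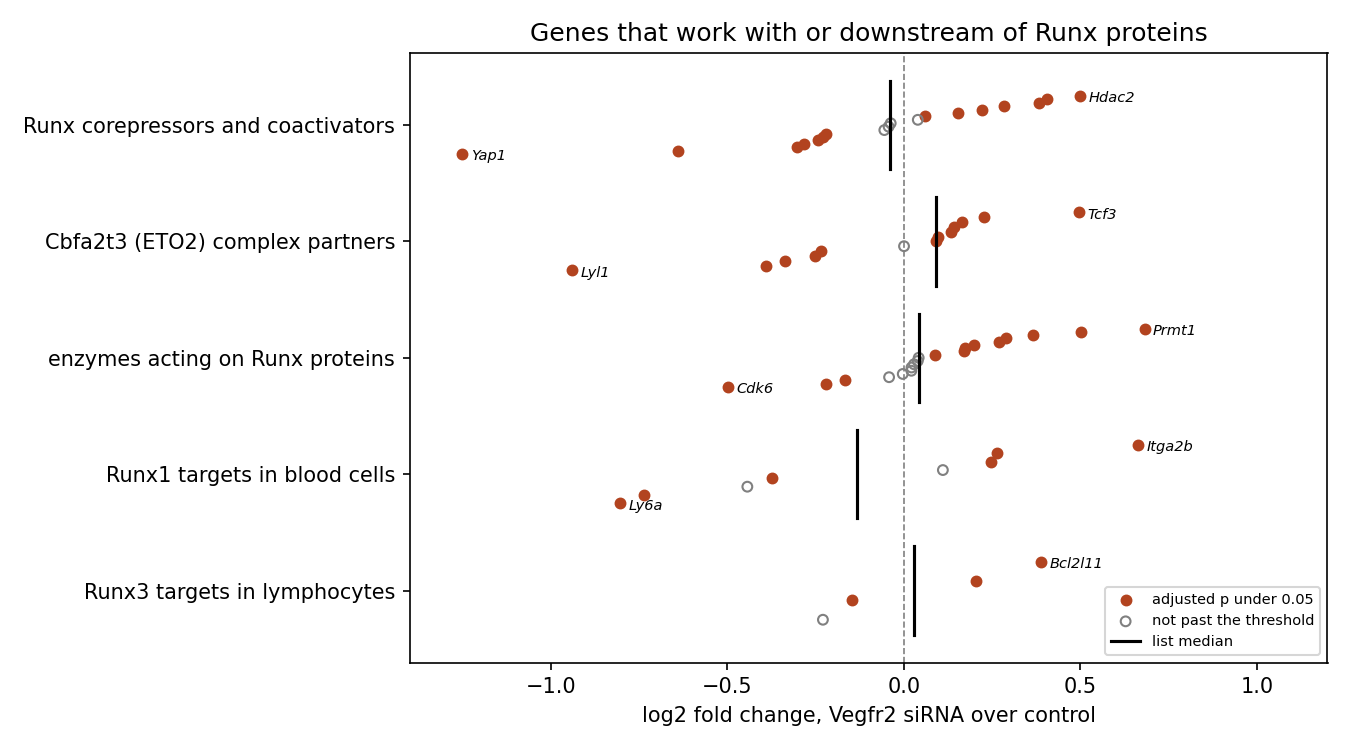
Log2 fold change (siRNA over control) of each tested gene in 5 lists of genes tied to Runx and Cbfa2t proteins; filled dots passed the test, open dots did not, and black lines are list medians. The first 3 lists scatter on both sides of 0, with medians of −0.04, 0.09 and 0.04, and Yap1 at −1.25 lies farthest from 0.

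Among genes known as Runx targets in other tissues, many had few reads. Of 16 Runx1 targets of blood cells with values, 8 were under the filter: the myeloid regulator gene Spi1, Gfi1, Vav1, Csf1r, Csf2, Nfe2, Myb and Cd4, with at most 27 counts summed over the siRNA and 20 over the control libraries. Gfi1, a repressor acting downstream of Runx1 when blood cells leave endothelium, had 2 counts in the siRNA and 4 in the control libraries, and Spi1 had 0 in the siRNA and 1 in the control libraries. Of the 8 tested, 3 rose, 3 fell and 2 did not pass (75% called, beside 71.3% of all tested genes). Itga2b, which encodes the platelet and early blood progenitor integrin CD41, rose to 4.61 ± 0.575 CPM in siRNA cells, against 2.91 ± 0.552 CPM in control cells (SD, n = 5 each; log2 fold change 0.66, edgeR adjusted p = 8.28e-06), with overlapping groups. The transcription factor genes Cebpb (0.26) and Hhex (0.25) rose, and Ly6a, which encodes the stem cell antigen Sca-1, fell by 0.80 on the log2 scale. Exons of Cebpb share 20.7% of their bases with another gene. With genes under a mean of 5 CPM left out, the median of this list was 0.24 in place of −0.13, over fewer genes, of which 3 passed.

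Of 14 Runx2 targets of bone with values, 12 were under the filter, with at most 49 counts summed over the siRNA and 46 over the control libraries. Among them Sp7, Bglap and Ibsp had 2 counts or fewer over all 10 libraries. While Runx2 fell, Spp1, which encodes osteopontin, rose to 52.9 ± 6.42 CPM in siRNA cells, against 27.9 ± 3.79 CPM in control cells (SD, n = 5 each; log2 fold change 0.92, edgeR adjusted p = 7.94e-05), with no overlap between the groups. Exons of Spp1 share 18.8% of their bases with another gene. Of 4 tested Runx3 targets, the apoptosis gene Bcl2l11 (0.39) and the cell cycle inhibitor gene Cdkn1a (0.21) rose. Zbtb7b, a CD4 lineage regulator, had a log2 fold change of −0.15 (edgeR adjusted p = 0.0191), a call lost without siRNA replicate 1 or 4 or control replicate 3 or 5 (adjusted p from 0.0508 to 0.0611), and the perforin gene Prf1 one of −0.23 (adjusted p = 0.373).

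For each tested member the 3 genes closest to it were found by the root-mean-square difference of log2 CPM over the 10 libraries, each gene centred on its control mean and with 0.1 CPM added, among tested genes with a mean of at least 5 CPM. This is a description of genes that changed by the same amount. Closest to Runx1 were Hmga2, a chromatin architecture gene that rose by 1.69 (distance 0.0746), the cystine transporter gene Slc7a11 (1.62; 0.0847) and Nipal1, a magnesium transporter gene (1.76; 0.0961). Hmga2 stood at 552 ± 34.8 CPM in siRNA and 171 ± 12.1 CPM in control cells (SD, n = 5 each), far above Runx1 in reads. Closest to Cbfa2t3 were the semaphorin gene Sema6b (−0.70), Asb13 (−0.70) and the kinase gene Dyrk1b (−0.66), at distances of 0.0421 to 0.0427. Cbfb was closest to the calcium pump gene Atp2a2 (0.23), Tomm70a (0.22) and Sec13 (0.22), and Cbfa2t2 to Zbtb41 (0.21), Secisbp2 (0.22) and Gmppb (0.23), whose estimated counts were fractional in 9 libraries. The low-count Runx2 had the widest distances, 0.0805 to 0.124, with Tmem79 (−0.42), Cenpp (−0.44) and Slfn8 (−0.36). Exons of Tmem79 (43.9%), Gmppb (33.6%) and Cenpp (12.6%) share bases with other genes.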

How the data were processed

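The deposited table holds estimated read counts per gene (expected counts, not normalized), made by the authors before deposit. HISAT2 2.2.1, Bowtie2 2.4.5, RSEM 1.3.1 and GRCm38.p6 appear in the submitters' processing notes. What each tool did, which annotation was used, how strand was set and whether genes were filtered is not given in the sources used here. Totals ran from 17946483 to 18239260, and intervals and floors cover counting error only. Counts were rounded and tested with edgeR 4.0.16 (R 4.3.3): TMM scaling, genes kept by filterByExpr (minimum count 10), robust quasi-likelihood fitting on group alone, and Benjamini-Hochberg adjustment over 12161 tested genes. SEs follow from the F statistics. Ratios of pairs had 0.5 counts added, with exact permutation in scipy 1.17.1. Alternatives were DESeq2 1.42.0, limma-voom (limma 3.58.1), scaling by RLE or upper quartile, other filters, the replicate number as a block and each library left out; other gene lengths were added after seeing the data. Coordinates and start-site windows are from RefSeq (GRCm38.p6, all 6 genes matched), and lengths and exon overlaps from GENCODE M21. The methods were tested on simulated data. Members, lists, sequence words and tests were chosen with earlier results of these data known. Named genes are the 6 members, Kdr, Runx1t1, up to 4 genes per list with the smallest adjusted p, listed genes under the filter and the closest genes, except some listed genes that are not reported here; the Tle genes, Ldb1, Tal1, Lmo2, Sox9, Krt18, Fcer1g and Laptm5 were named after their values were seen.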

Additional observations from a re-analysis of the deposited data

How the results depend on the processing

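The 5 tested members kept their direction and stayed past the threshold under every alternative that tested them, except that at a mean of at least 5 CPM Runx2 was left out and 4 were called. Runx1 ran from 1.63 to 1.73 on the log2 scale, Cbfb from 0.20 to 0.24, Cbfa2t2 from 0.20 to 0.25 and Cbfa2t3 from −0.70 to −0.67, and the pair ratios kept their calls, with adjusted exact permutation p up to 0.0159. The count of members that passed glmTreat against a fold of 1.5 was 2 with RLE factors, and 1 to 2 when each library was left out, as Cbfa2t3 lies at that limit. The median of the genes whose products act on Runx proteins became 0.0339 where genes needed a mean of 5 CPM. Without each library it was 0.0330 to 0.0613. At that filter 3 Runx1 blood targets were called with a median of 0.239, and the median of the Runx3 targets was 0.197, over fewer genes. Same-numbered siRNA and control libraries did not deviate together (correlations from −0.195 to −0.0201). This cannot exclude that they shared a culture or preparation, which the labels do not state. With the replicate number as a block all 5 members were called and all genes called numbered 8537 in place of 8668. 0 of 10 libraries correlated best with its own number. The low counts of Runx2 limit its precision, and Runx3, 8 of 16 blood targets and 12 of 14 bone targets were under the filter and not tested.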
